A study of Rattus norvegicus with 6 samples.

Results

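Mif and 4 genes that encode a relative, receptors and a binding partner of its protein were followed in cultured rat articular chondrocytes: Ddt, Cd74, Ackr3 and Cops5. Their rows were taken by gene symbol, and they make up 5 of the 18420 genes in the deposited table. All 5 passed the filter on low counts and were among the 13250 genes tested. Mif had been noticed for its change between the groups compared here, where its p-value ranked 6 of 13250, so it was chosen by its measured difference, which is given as a description and supports nothing further. The other 4 were taken up for what their products are known to do with MIF.

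Chondrocytes from the joint cartilage of male, wild-type (WT) Sprague-Dawley rats were used at the third passage, and cells of the same passage were divided among the groups. The 3 libraries of the TNF-α group came from cells exposed for 6 h to TNF-α at 10 ng/mL. The 3 libraries of the TNF-α+NFL group came from cells given the same TNF-α for 6 h and then nanofat lysate (NFL), the cleared freeze–thaw supernatant of adipose tissue cells, for another 24 h. The comparison asks which transcripts differ once NFL follows the inflammatory cytokine. The labels place the harvest at 6 h in one group and at 30 h in the other, so NFL and time since TNF-α cannot be told apart. All cells in both groups had received TNF-α, and the untreated NC group was not analysed here. The study describes the replicates as independent and biological, but the labels do not tie them to separate animals or cultures, so the p-values measure the spread between these samples.

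Each library held 19344893 to 19725135 estimated counts, and no pair of libraries agreed within sampling noise. TNF-α replicate 1 and TNF-α replicate 3 stood farthest apart of all pairs, within a group or across the groups (chi-square per gene 14.01). Pairs across the groups were at 6.117 to 10.49. The other TNF-α pairs were at 9.199 (replicates 1 and 2) and 5.017 (replicates 2 and 3), and the TNF-α+NFL pairs at 2.716 to 3.058. In the study's own list of changed genes, the order of the 2 treated groups relative to NC runs opposite to the deposited labels. The log2 differences of the 2 sources had a correlation of -0.999 over 3291 genes. Every direction here follows the deposited labels and would be reversed if these labels were exchanged. Which source is right was not tested. Of the cartilage markers, Col11a1 and Prg4 were high, whereas Col2a1 was at 353 to 399 counts with TNF-α alone and 413 to 466 with TNF-α+NFL, and Matn1 at 0 or 1. The 5 fibroblast markers were all detected, with a summed CPM (counts scaled to library size by the TMM method) of 7189 to 7998. The 11 cartilage markers summed to less, 3495 to 4246. Nearly all of that was Col11a1 and Prg4 (mean CPM 1620 and 2170 with TNF-α alone). In the same group Acan (18.4), Hapln1 (12.1), Comp (10.9) and Sox9 (9.2) were low.

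MIF is a small cytokine that is stored inside cells and released under stress, and it is known in joint disease as a partner of TNF-α driven inflammation. Outside the cell it binds the surface form of CD74, which signals through CD44, and it also binds the chemokine receptors CXCR2, CXCR4 and ACKR3. Inside the cell it binds the COPS5 (JAB1) subunit of the COP9 signalosome, which removes the NEDD8 modifier from cullin ubiquitin ligases. D-dopachrome tautomerase, the product of Ddt, is the closest relative of MIF and shares its fold and its binding to CD74.

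Mif and Ddt lie on rat chromosome 20, with 5 other RefSeq genes between them. The 250 bases before the RefSeq start of each are shown, since these genes code for the 2 ligands and the motifs of their promoters can be compared. Both are read 5′ to 3′ on the + strand of GRCr8, at chr20:12790107-12790356 for Mif and chr20:12883400-12883649 for Ddt, with the letters of every motif searched in capitals.
Mif: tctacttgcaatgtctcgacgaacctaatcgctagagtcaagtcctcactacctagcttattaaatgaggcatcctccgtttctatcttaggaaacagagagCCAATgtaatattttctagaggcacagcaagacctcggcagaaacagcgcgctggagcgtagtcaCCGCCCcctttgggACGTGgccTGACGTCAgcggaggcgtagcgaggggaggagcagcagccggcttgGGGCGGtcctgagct
Ddt: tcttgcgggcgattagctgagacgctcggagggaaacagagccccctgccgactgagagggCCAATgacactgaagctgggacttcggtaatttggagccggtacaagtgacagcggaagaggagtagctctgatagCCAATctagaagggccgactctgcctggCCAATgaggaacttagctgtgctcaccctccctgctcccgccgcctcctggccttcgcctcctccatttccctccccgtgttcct
Both strands were searched for the cyclic AMP response element TGACGTCA, the hypoxia response element core ACGTG, the GC box GGGCGG and the CCAAT box. The Mif promoter held TGACGTCA 61 bases before the start, ACGTG 69 bases before it, a GC box at 83 (on the other strand) and at 15 bases, and a CCAAT box at 148 bases. The Ddt promoter held none of the first 3 motifs and had CCAAT at 189, 113 and 85 bases before the start. In all 27457 RefSeq promoters of this length, TGACGTCA was found in 1.7%, ACGTG in 16.9%, GGGCGG in 32.4% and CCAAT in 34.3%. Of the tested genes besides Mif, 305 had TGACGTCA in that window, and their median log2 fold change between the groups was -0.0022, beside -0.0044 for the 10396 tested genes with any promoter in the table. The 2324 tested genes with ACGTG had a median of -0.0099. No matches overlapped in these promoters, and a match of letters is a description of the sequence and not a bound site.

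Mif, the cytokine itself (Entrez gene 81683), had 4864, 5061 and 4861 estimated counts in TNF-α replicates 1, 2 and 3, and 3956, 3881 and 4113 in TNF-α+NFL replicates 1, 2 and 3. Scaled for library size, these were a CPM of 254.6, 256.1 and 245.8 against 202.0, 198.8 and 209.4. All 3 libraries labelled as given NFL lay below all 3 labelled TNF-α, and the spread inside each group was small beside the gap between them. The mean CPM was 252.2 ± 5.60 with TNF-α alone and 203.4 ± 5.45 with TNF-α+NFL (SD, n = 3 each). The log2 fold change, TNF-α+NFL minus TNF-α, was -0.31 (standard error 0.039, 95% interval -0.39 to -0.23), which is a change of -19.3%. Its adjusted p of 0.0047 by edgeR is the value that had drawn attention to the gene. That value was 0.074 without TNF-α+NFL replicate 1 and 0.055 without TNF-α+NFL replicate 2, with log2 fold changes of -0.30 and -0.29. Fewer cells of a type and less RNA per cell cannot be told apart in such bulk libraries. All 6 estimated counts of Mif were fractional, which means that some reads were split between Mif and other entries of the annotation. RefSeq names 4 Mif-like genes and 9 Mif pseudogenes in the rat, and 0 of these 13 identifiers were in the table used, so the share of reads from copies could not be measured.

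Ddt, the second ligand (Entrez gene 29318), had 669, 758 and 758 counts in the TNF-α replicates and 690, 667 and 695 in the TNF-α+NFL replicates. The lowest TNF-α library, replicate 1, lay inside the range of the other group, so the groups overlapped. The mean CPM was 37.2 ± 1.92 against 34.9 ± 0.668 (SD, n = 3 each), a log2 fold change of -0.093 (standard error 0.055, 95% interval -0.21 to 0.025). The adjusted p was 0.58 by edgeR over all genes. The interval reaches from a decrease to a slight increase, and it does not show that Ddt stayed level.

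Per length, Mif was by far the most abundant of the 5 transcripts. FPKM, the fragments of a transcript scaled by its length and by the mapped reads, as deposited by the authors, was 479.2 ± 10.5 for Mif with TNF-α alone and 387.5 ± 10.4 with TNF-α+NFL (SD, n = 3 each), and 98.6% of the tested genes had a lower mean. Ddt came next at 58.41 to 65.96 FPKM over the 6 libraries, then Cops5 at 43.6 to 52.1, Ackr3 at 33.6 to 39.2 and Cd74 at 0.60 to 1.29. This order held in each of the 6 libraries, and the ranges of neighbours in it did not overlap. The FPKM ratio of Mif to Ddt was 7.13 to 8.08 in the TNF-α group and 6.38 to 6.59 in the TNF-α+NFL group. The ratio of Mif to Cops5 was 9.002 to 10.55 and 8.55 to 8.85, respectively. The ratio of Mif to Ackr3 was 11.96 to 13.58 and 11.13 to 11.57, and these 3 ratios did not overlap between the groups. All 3 share Mif, which was chosen for its difference between the groups, so their separation supports nothing further. The ratio of Mif to Cd74 did overlap and had the higher mean after NFL, at 363.5 to 550.2 with TNF-α alone and 470.5 to 664.4 with TNF-α+NFL.

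**Figure D1:**
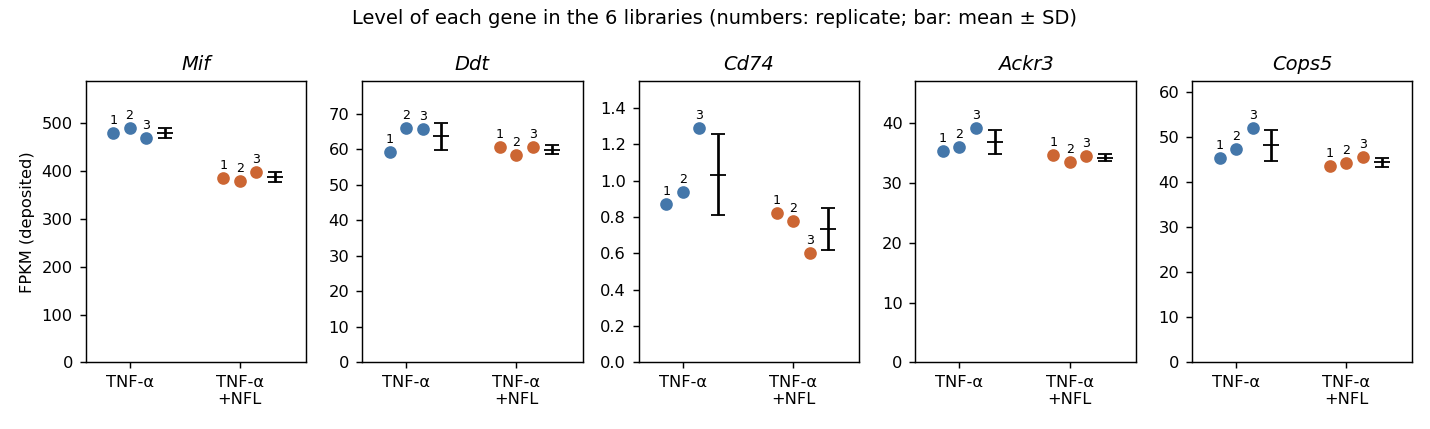
FPKM (vertical axes, each starting at 0) of Mif, Ddt, Cd74, Ackr3 and Cops5 in the 3 TNF-α (blue) and 3 TNF-α+NFL (orange) libraries, numbered by replicate, with the mean and SD as a bar beside each group. Mif sat at 468.9 to 490.0 in the TNF-α libraries and at 378.1 to 398.6 in the TNF-α+NFL libraries, whereas the Ddt values of the groups overlapped and Cd74 stayed at 1.29 FPKM or below.

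Cd74, the invariant chain that escorts MHC class II molecules and is the signalling receptor of MIF (Entrez gene 25599), was close to the detection limit. It had 20, 22 and 31 counts in the TNF-α replicates and 19, 18 and 14 in the TNF-α+NFL replicates, and only 12% of the tested genes had a lower mean FPKM. Every TNF-α+NFL library lay below every TNF-α library, by 1 count between the nearest libraries. The mean CPM was 1.24 ± 0.283 against 0.868 ± 0.137 (SD, n = 3 each). The log2 fold change was -0.52 (standard error 0.27, 95% interval -1.09 to 0.058, adjusted p = 0.52 by edgeR), and it was -0.31 without TNF-α replicate 3, which held the highest count, and -0.23 with limma on log2(FPKM + 1), a scale that understates the change of low genes. The interval includes 0 and a decrease by more than 1 on the log2 scale, so these counts leave the size of any difference in Cd74 wide.

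CD74 is best known from antigen-presenting cells, and the genes that work with it there were read from a list of 17 symbols. RT1-Da and RT1-Bb, which encode MHC class II chains, were at 0 counts in all 6 libraries, RT1-Ba reached at most 2 counts and RT1-Db1 at most 1. Ciita, the master regulator of MHC class II transcription, was at a CPM of 0.801 ± 0.0521 with TNF-α alone and 0.698 ± 0.293 with TNF-α+NFL (SD, n = 3 each). RT1-DMa, a chain of the peptide loading factor, was detected at a CPM of 21.6 and 20.7. The lysosomal proteases Ctsl (cathepsin L) and Lgmn (legumain) were high, at 535.9 and 112.3 FPKM in the TNF-α group, while Ctss (cathepsin S), which trims the invariant chain in professional antigen-presenting cells, was at 0.807 FPKM. Of the 10 tested members of the list, 0 passed an adjusted p of 0.05 by edgeR (0.611% of all tested genes did), and 2, Sppl2a and Rfxap, had an unadjusted p under 0.05 (11.1% of all tested genes did). The median log2 fold change was -0.023, and its sign was not stable: it was 0.0096 without TNF-α+NFL replicate 2, 0.014 with the length trend removed and 0.0064 with at least 10 counts required in every sample. It was nearer 0 without TNF-α replicate 1 (-0.010), TNF-α replicate 3 (-0.0029) or TNF-α+NFL replicate 3 (-0.0046). Sppl2a, the intramembrane protease that cuts the last stub of CD74, had a log2 fold change of 0.097 (adjusted p = 0.41 by edgeR) and Rfx5, a factor of class II promoters, of -0.096 (adjusted p = 0.46 by edgeR), each without overlap between the groups, as were 8.66% (higher) and 8.17% (lower) of all tested genes. Rfxap, another factor of class II promoters, was at 0.26 (adjusted p = 0.36 by edgeR) with overlapping groups. Ifi30, a lysosomal thiol reductase, was at 40.9 and 40.1 FPKM.

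Macrophages and other leukocytes carry far more CD74 than cartilage cells, so their markers were read beside it. Of 14 macrophage markers, 10 were in the table and 2 passed the filter, Cd68 and Cd14, both of which other cell types also express. The summed CPM of the 10 was 78.1 to 84.1 in the TNF-α group and 70.1 to 71.8 in the TNF-α+NFL group, so this sum too was lower after NFL, without overlap, and its part in the Cd74 values was not tested. Nearly all of the sum was Cd14 (mean CPM 54.2 with TNF-α alone and 48.1 with TNF-α+NFL) and Cd68 (24.2 and 22.4), and the counts of Cd68 overlapped between the groups, at 443 to 491 and 387 to 502. The other 8 markers summed to 94.0 counts in TNF-α replicate 1 and to 10 to 13 counts in each of the other 5 libraries. In TNF-α replicate 1 these included 40 counts of Csf1r, 14.95 of Lyz2, 12 of Fcer1g and 11 of Tyrobp, and Ctss was also highest there at 33 counts. Cd74 was not: it stood at 20 counts in that library and was highest, at 31, in TNF-α replicate 3. C1qb was at 0 in all libraries. The 4 markers of B and dendritic cells in the table summed to a CPM of at most 0.809, and the 4 of endothelium to at most 0.819. The 5 adipocyte markers summed to a CPM of 8.27 to 10.1, nearly all of it Fabp4.

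**Figure D2:**
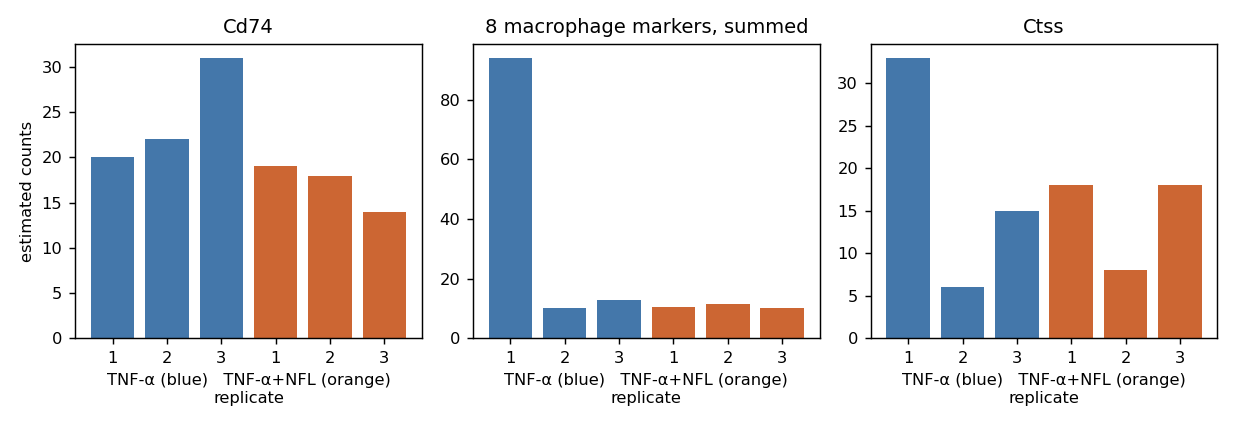
Estimated counts (vertical axes from 0) of Cd74, of the 8 macrophage markers that did not pass the filter on low counts, and of Ctss in each library (horizontal axis: replicates 1 to 3 of TNF-α in blue, then of TNF-α+NFL in orange). The macrophage markers stand out in TNF-α replicate 1 at 94.0 counts, where Cd74 was at 20 counts, and not in TNF-α replicate 3, where Cd74 was highest.

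Cd44, the co-receptor that carries the signal of CD74 and also the main hyaluronan receptor of chondrocytes, was abundant. Its mean CPM was 499.3 ± 10.9 with TNF-α alone and 536.3 ± 6.53 with TNF-α+NFL (SD, n = 3 each), without overlap. The log2 fold change was 0.10 (standard error 0.036), and it did not pass over all genes (adjusted p = 0.28 by edgeR). Per length, Cd44 stood at 120.0 FPKM in the TNF-α group, while its partner Cd74 stood at 1.03.

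Ackr3 (CXCR7), the atypical chemokine receptor that binds MIF, CXCL12 and CXCL11 and recruits arrestins in place of G proteins (Entrez gene 84348), had 1331, 1392 and 1513 counts in the TNF-α replicates and 1326, 1278 and 1324 in the TNF-α+NFL replicates. In CPM these were 69.7, 70.5 and 76.5 against 67.7, 65.5 and 67.4. The groups did not overlap, and TNF-α replicate 3 lay highest. The mean CPM was 72.2 ± 3.74 against 66.9 ± 1.23 (SD, n = 3 each), which is -0.11 on the log2 scale (standard error 0.048, 95% interval -0.21 to -0.0084, adjusted p = 0.41 by edgeR). Without TNF-α replicate 3 it was -0.066. Of the chemokine receptors that share ligands with ACKR3, Cxcr4 had 1 to 5 counts and Cxcr3 1 to 4 counts in each library, both below the filter, and Cxcr2 was not analysed here.

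The other genes around ACKR3 were read from a list of 16 symbols, of which 10 were tested and 0 passed an adjusted p of 0.05 by edgeR (0.611% of all tested genes did), with 0 at an unadjusted p under 0.05 (11.1% of all tested genes). The median log2 fold change was 0.026, but it turned to -0.011 when TNF-α+NFL replicate 3 was left out and to -0.029 when TNF-α replicate 3 was. It was 0.056 without TNF-α+NFL replicate 2, 0.042 with the length trend removed and 0.0027 with limma on log2(FPKM + 1). Cxcl12, its main chemokine ligand, was at a CPM of 355.9 ± 11.6 with TNF-α alone and 364.1 ± 17.2 with TNF-α+NFL (SD, n = 3 each). Adm, the peptide hormone adrenomedullin that ACKR3 also scavenges, was at 468.1 ± 15.8 and 443.9 ± 13.9 (SD, n = 3 each). Cxcl11 was low, at 2.83 and 2.79 CPM. Per length, Cxcl12 and Adm were several times as high as Ackr3, with 149.9 and 339.4 FPKM in the TNF-α group. The arrestin genes Arrb1 and Arrb2 were at 5.22 and 4.09 FPKM, below Ackr3 itself, and Ramp2, a partner of the adrenomedullin receptor, was at 17.3 FPKM, beside 15.2 FPKM for Grk2, a kinase of activated receptors. Cxcr4, Cxcr3, Ackr2, Calcrl and Dpp4 were below the filter, and Ackr1 was not analysed here.

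Cops5, the deneddylating subunit of the COP9 signalosome and the intracellular partner of MIF (Entrez gene 312916), had 1103, 1170 and 1289 counts in the TNF-α replicates and 1068, 1085 and 1123 in the TNF-α+NFL replicates. The corresponding CPM values were 57.7, 59.2 and 65.2 against 54.5, 55.6 and 57.2. The groups were separated only narrowly, by 57.7 in TNF-α replicate 1 against 57.2 in TNF-α+NFL replicate 3. The mean CPM was 60.7 ± 3.94 against 55.8 ± 1.33 (SD, n = 3 each). The log2 fold change of -0.12 (standard error 0.053, 95% interval -0.24 to -0.0094) had an adjusted p of 0.40 by edgeR, and it was -0.067 without TNF-α replicate 3.

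The whole signalosome was present. The 10 subunit genes, Cops5 included, had a mean of 11.2 to 100.1 FPKM, with Cops9, its smallest subunit, at the top and Cops7b at the bottom. The log2 fold changes of all 10 lay below 0, from -0.13 (Cops9) to -0.0030 (Cops2), with a median of -0.072, and none passed the test. Over all tested genes, 51.8% were below 0. Among transcripts over 1000 to 2000 bases with a mean CPM of at least 200, a level the subunits did not reach, 71.6% were. Whether the values of the subunits go with transcript length was not tested. Cops8 was the only subunit besides Cops5 without overlap between the groups (-0.11, adjusted p = 0.45 by edgeR). Over all tested genes, 8.17% were lower without overlap. The CPM of Cops8 was below the level of 50 used elsewhere for naming. Among the cullins that the signalosome acts on, Cul5 was higher without overlap, with a log2 fold change of 0.10 (adjusted p = 0.39 by edgeR), and Cul1 was at 0.0045. Nedd8, the modifier itself, was at 100.9 and 96.7 FPKM, and the next most abundant subunits Cops7a and Cops6 were at 79.2 and 71.1 FPKM in the TNF-α group. The list of 17 genes of the signalosome and its substrates, without Cops5, had 0 calls by edgeR, beside 0.611% of all tested genes, and 3 genes at an unadjusted p under 0.05 (Gps1, Cops8 and Cul5), beside 11.1% of all tested genes. The groups did not overlap for 1 lower and 1 higher gene of the 17, beside 8.17% and 8.66% of all tested genes. The median of the list was -0.030, with -0.052 without TNF-α+NFL replicate 3, -0.010 without TNF-α+NFL replicate 1, -0.016 without TNF-α replicate 3, and -0.017 when TNF-α replicate 2 was left out. With the length trend removed it was -0.019. Without TNF-α replicate 1, Gps1 and Cops9 were past the threshold, in a fit that called 6.94% of all genes tested in it.

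**Figure D3:**
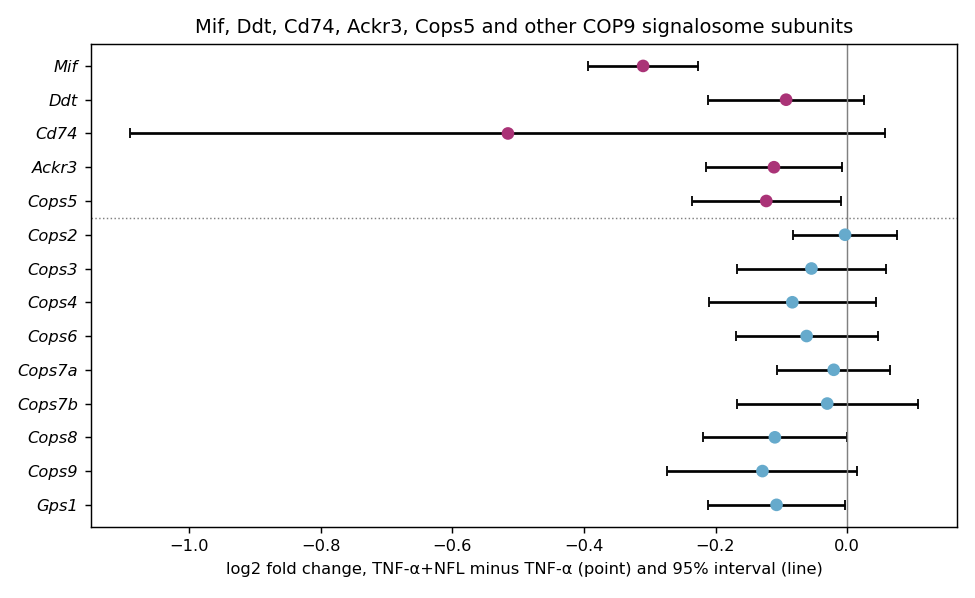
Log2 fold change (horizontal axis, TNF-α+NFL minus TNF-α) with its 95% interval from edgeR for the 5 genes (magenta points) and for the other 9 subunits of the COP9 signalosome (blue points). Mif lies at -0.31 with an interval that ends at -0.23, the interval of Cd74 is the widest, and the 9 other subunits lie between -0.13 and -0.0030.

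Of the 5 genes, Mif alone was past an adjusted p of 0.05, where 27 of 13250 genes (0.204%) were lower and 54 (0.408%) were higher after NFL by the labels, 0.611% in all. Since Mif was chosen for that, nothing is read from it. Those totals were 470 and 460 without TNF-α replicate 1 and 0 and 5 without TNF-α+NFL replicate 1. Of the 4 other genes, Cd74, Ackr3 and Cops5 were lower without overlap, as were 8.17% of all tested genes (8.66% were higher without overlap), and each had an exact permutation p (two-sided) of 0.10, below which groups of 3 cannot go. Ddt had an exact permutation p of 0.30. The log2 fold changes of all 5 were below 0, which was true of 51.8% of the tested genes, whose median was -0.0035.

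Genes that act with MIF inside and outside the cell were read from a list of 26 symbols, with 25 rows tested, since Rps19 is in the table with 2 identifiers and Cxcr2 and Cxcr4 were not tested. Of these, 1 was lower and 0 were higher at an adjusted p of 0.05 by edgeR, beside 0.204% and 0.408% of all tested genes, and 7 had an unadjusted p under 0.05, beside 11.1%. The median log2 fold change was -0.047, and it was -0.019 without TNF-α+NFL replicate 2, -0.028 without TNF-α replicate 1 and -0.026 with the length trend removed. The lower gene was Ptgs2, which encodes cyclooxygenase 2, the inducible prostaglandin synthase and a known downstream gene of MIF and TNF-α. It had 1422, 1330 and 1423 counts in the TNF-α replicates and 1120, 1154 and 1224 in the TNF-α+NFL replicates. The 2 groups did not overlap, with a mean CPM of 71.2 ± 3.62 against 59.5 ± 2.59 (SD, n = 3 each) and a difference of -0.26 on the log2 scale (standard error 0.051, adjusted p = 0.039 by edgeR). This call was lost with the replicate number as a block, with limma on FPKM and in every fit that left out 1 library other than TNF-α replicate 1. Without TNF-α replicate 1, 8 of the 25 rows were called instead of 1, in a fit that called 6.94% of all genes tested in it: Ptgs2, Rps19, Txn1, Prdx1 and Htra1 lower, and Cd44, Hsp90aa1 and Nr3c1 higher.

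Other members of that list had smaller differences. Of the 25 rows, 4 were higher and 6 lower without overlap, beside 8.66% and 8.17% of all tested genes. Nr3c1, the glucocorticoid receptor whose action MIF is known to counter, had a CPM of 137.4 ± 5.37 with TNF-α alone and 151.6 ± 1.03 with TNF-α+NFL (SD, n = 3 each), a log2 fold change of 0.14 (adjusted p = 0.18 by edgeR). Mapk3 (ERK1), a kinase downstream of CD74 and CD44, was at -0.069 on the same scale, without overlap (adjusted p = 0.56 by edgeR). Jun, the AP-1 subunit bound by COPS5, was at -0.12 (adjusted p = 0.33 by edgeR), again without overlap. The chaperone genes Hsp90aa1 (0.10) and Hsp90ab1 (-0.058) lay on either side of 0, both without overlap, with adjusted p of 0.29 and 0.60 by edgeR. Htra1, a secreted protease abundant in cartilage, was at -0.10 (adjusted p = 0.32 by edgeR). The redox partners Prdx1 and Txn1 were at -0.093 and -0.15, and Rps19, a ribosomal protein known to bind MIF, was at -0.14 and, in its second row, at -0.17 (standard error 0.26), each with overlapping groups. Dusp1, the phosphatase that glucocorticoids induce and MIF lowers, was at 0.081 with overlapping groups.

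Mif is a short transcript at a high level, with a length of 525 bases implied by its count and FPKM, so it was set against others of that kind. The class was defined as transcripts of up to 700 bases with a mean CPM of at least 200, Mif left out, and held 65 genes. Their median log2 fold change was -0.12 (quartiles -0.16 and -0.091), and 61 of the 65 (93.8%) were below 0, beside a median of -0.0035 and 51.8% below 0 over all tested genes. The median depended on the limits: at a mean CPM of at least 1000, which left 4 genes, it was -0.039, and with the length trend removed it was -0.020. By edgeR 1 of the 65 was called lower and 0 were called higher, beside 0.204% and 0.408% of all tested genes. The groups did not overlap for 14 that were lower (21.5%, beside 8.17% of all tested genes). By function, the 41 ribosomal protein genes had a median of -0.13, the 2 oxidative phosphorylation genes Cox6a1 and Cox4i1 of -0.15 and the other 22 of -0.088.

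The log2 fold changes of high transcripts ran with length. With a mean CPM of at least 200, the median was -0.12 for the 34 of up to 500 bases, -0.12 for the 31 from 500 to 700 bases, -0.093 for 45 from 700 to 1000 bases and -0.034 for 229 from 1000 to 2000 bases. It was 0.0059 for 315 from 2000 to 4000 bases and 0.031 for the 218 that were longer. Against this, Mif minus the median of its class was -0.19 on the log2 scale. Mif was chosen for its change between these groups, so its place among other genes is a description and supports nothing further. Counted from the lowest, Mif was 3 of 66 in the class, and 0 of the 807 longer transcripts at that level lay below it. The 2 below it were LOC100362684 (-0.41, standard error 0.52), whose replicates spread widely, and LOC100360508 (-0.34, standard error 0.066, adjusted p = 0.069 by edgeR). When each library's trend of log2 CPM with length was removed, Mif was at -0.22 (adjusted p = 0.084 by edgeR), Ddt, which has an implied length of 584 bases, was at -0.0022, Cops5 at -0.081, Ackr3 at -0.094 and Cd74 at -0.47.

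**Figure D4:**
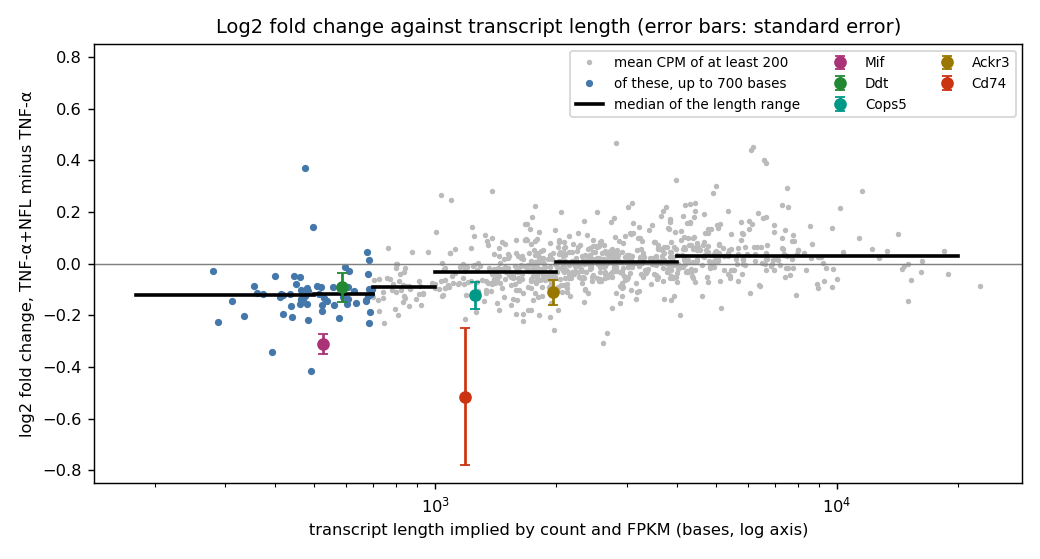
Log2 fold change (vertical axis, TNF-α+NFL minus TNF-α) against implied transcript length (horizontal log axis, in bases) for genes with a mean CPM of at least 200 (grey, and blue up to 700 bases), with medians by length range as black lines and the 5 genes with standard errors. The black lines run from -0.12 for the shortest to 0.031 for the longest transcripts, Ddt sits on the level of its length range, and Mif lies below it.

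The 10 genes of the class closest to Mif in mean FPKM, at 337.9 to 561.8, had a median of -0.12 on the log2 scale, with 9 below 0 (51.8% of all tested genes were) and 0 called by edgeR (0.611% of all tested genes were). Cox6a1 and Cox4i1, subunits of cytochrome c oxidase, were at -0.16 and -0.14, both lower without overlap, as were 8.17% of all tested genes. The ribosomal protein genes Rps25, Rpl34 and Rpl14 were at -0.16, -0.12 and -0.12, and Cstb, a cathepsin inhibitor, at -0.091. LOC100360449 was at -0.23 with a standard error of 0.38, and LOC102555453 and RGD1561590 were at -0.041 and -0.015. Cyba, a subunit of the NADPH oxidase, was the exception at 0.044. Mif, which was chosen for its change between the groups, lay outside the range of these 10 at -0.31.

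By library, Mif and the class parted in TNF-α replicate 1. As log2 CPM minus the mean of the 6 libraries, the median of the 65 transcripts was -0.060, 0.12 and 0.11 in TNF-α replicates 1, 2 and 3, and -0.036, -0.095 and -0.056 in the TNF-α+NFL replicates. TNF-α replicate 1 thus lay among the libraries of the other group for the median of these 65 transcripts. Mif was at 0.17, 0.18 and 0.12 in the TNF-α replicates and at -0.17, -0.19 and -0.11 in the TNF-α+NFL replicates, so that it was high in all 3 of the first group. The difference of Mif from the class was 0.23, 0.061 and 0.0096 in the TNF-α group and -0.13, -0.094 and -0.056 in the TNF-α+NFL group. These did not overlap, for a gene chosen by its difference, but TNF-α replicate 3 was close to 0. In that library Mif and the class lay at about the same deviation. Ddt was at -0.042, 0.090 and 0.088 in the TNF-α replicates and at -0.033, -0.077 and -0.027 in the TNF-α+NFL replicates, close to the class in each library. Without TNF-α replicate 1 the class median was -0.18 and Mif minus that median was -0.13.

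**Figure D5:**
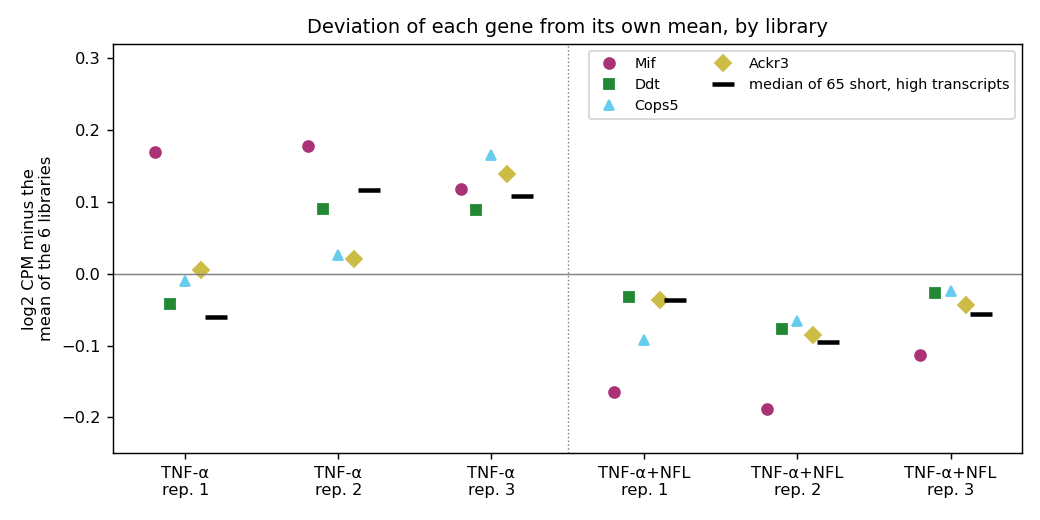
Log2 CPM of Mif, Ddt, Cops5 and Ackr3 minus each gene's own mean over the 6 libraries (vertical axis), with the median of the 65 short, high transcripts as a black bar, for each library (horizontal axis). In TNF-α replicate 1 Mif is at 0.17 while the bar is at -0.060, and in the 3 TNF-α+NFL libraries Mif lies below the bar, from -0.11 to -0.19.

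Among 3898 other tested genes with a mean CPM of at least 50, those whose log2 CPM over the 6 libraries was most like that of Mif were Gja1 (Pearson r 0.992), Osr1 (0.991), Clptm1 (0.991), Eif3f (0.987) and Aldoa (0.987). These r are descriptions over 6 libraries in 2 groups that share scaling factors and depth, and the largest of so many is high by selection. Osr1, a transcription factor of joint and limb development, was at -0.23 (adjusted p = 0.022 by edgeR), Aldoa, a glycolytic enzyme, at -0.15 and Gja1, the gap junction protein connexin 43, at -0.14. The profiles most like the others were those of Psmb6, Ccng1 and Rpl41 for Ddt, of Snx2, Chmp4b and H2afy for Cd74, of Pnp, Cyp7b1 and Tmem134 for Ackr3, and of Map2k2, Mapk3 and Bax for Cops5. The r of Map2k2 with Cops5 was 0.998.

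Along chromosome 20, the RefSeq neighbours of Mif differed in sign, and none passed the test. Before it lie Derl3 (log2 fold change -0.48, at a CPM of 2.31 and 1.65), Smarcb1 (-0.11), Mmp11 (-0.057) and Chchd10 (-0.95, adjusted p = 0.24 by edgeR). After it lie Gstt2 (0.25, adjusted p = 0.48 by edgeR), Gstt1 (-0.0087) and Gstt3 (-0.26), with Ddt as the next gene. Smarcb1, a chromatin remodelling subunit, was the only one of these neighbours above a CPM of 50 besides Mif itself, at 61.0 ± 1.51 and 56.6 ± 0.513 (SD, n = 3 each), without overlap (adjusted p = 0.36 by edgeR). Chchd10 and Gstt3 were also lower, and Gstt2 higher, without overlap, at a mean CPM of 5.63 or less, and over all tested genes 8.17% were lower and 8.66% higher without overlap. Gstt4 was at 0 counts in all 6 libraries, and C20h22orf15 was below the filter.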

How the data were processed

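RNA of 3 TNF-α and 3 TNF-α+NFL samples was selected by poly(A) and read as single-end 50-base reads on the BGISEQ-500, per the labels, whereas the paper names another instrument. The submitters' processing notes name HISAT2 2.0.4, Bowtie2 2.2.5, RSEM 1.2.12 and the build Rnor_6.0, and the annotation and strand setting are not given in the sources used here. As deposited by the authors, the table gives estimated counts, which are not normalized, with FPKM values (scaled to transcript length and mapped reads) and TPM values (scaled to length and to a fixed sum), and the TPM values were only checked for their sums. Between 27.28% and 27.959% of the estimated counts per library were fractional (over 0.001 from a whole number).

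After rounding, the counts were fitted in R 4.3.3 by the robust quasi-likelihood test of edgeR 4.0.16 (TMM scaling, filterByExpr, two-sided, Benjamini-Hochberg over 13250 genes, biological coefficient of variation 6.39%), without covariates. The test was checked on simulated counts, with 200 genes drawn at random from all 13250 tested genes and changed. It recovered 35.35% of them at a log2 change of 0.3 and 88.94% at 1. The share of false calls was 6.667% and 6.842%, somewhat above the threshold. The drawn genes were of any level, and the simulation held no length trend and no deviating library. Its recovery is therefore not that of a gene at the level of Mif. Transcript length was implied by count and FPKM where FPKM was at least 0.5. Of 18420 identifiers, 17068 matched the RefSeq table of GRCr8, used for names, neighbours and promoters (the latter matched Mif, Ddt, Cd74 and Ackr3). The coordinates are those of GRCr8 and not of the build of the counts.

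The 5 genes, the lists and the class of short transcripts were chosen with earlier results of these data known, and the lists come from general knowledge. Named are list members past an adjusted p of 0.05 or without overlap at a CPM of 50 or more, up to 4 others per list with the highest FPKM, the 10 class members nearest Mif in level, the most similar profiles and the neighbours of Mif. Others named (such as Ciita, Ctss, Cops2, Cops8, Dusp1, Cxcl11) were chosen after their values were seen. Alternatives were other filters, DESeq2 1.42.0, limma 3.58.1 (voom, and log2(FPKM + 1)), the length trend removed, the replicate number as a block, other class limits and leaving out each sample. Some genes that this rule names are not reported here.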

Additional observations from a re-analysis of the deposited data

How the results depend on the processing

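The log2 fold changes of Mif, Ddt, Cd74, Ackr3 and Cops5 stayed below 0 under all 14 alternatives each. Mif was no longer past an adjusted p of 0.05 with limma on log2(FPKM + 1) (-0.306, adjusted p = 0.054) and with the length trend removed (-0.217, adjusted p = 0.084 by edgeR), and ranged from -0.33 to -0.293 when 1 sample was left out, past it in 4 of 6 fits. The median of the short, high transcripts was -0.0195 with the length trend removed, -0.0391 at a mean CPM of at least 1000, and -0.175 to -0.0852 when 1 sample was left out. The number of MIF partner genes called was 0 with limma on log2(FPKM + 1), 0 with the replicate block and 0 to 8 when 1 sample was left out, and that of COP9 genes 0 to 2. The causes were not tested, apart from what removing the length trend does by construction. With the number as a block, Mif was at -0.310 (adjusted p = 0.015 by edgeR), Ddt at -0.0917, Cd74 at -0.508, Ackr3 at -0.110 and Cops5 at -0.121. Samples with the same number did not deviate together (correlations 0.030, -0.024 and 0.10). This cannot show whether they share a culture, an animal or a batch, which the labels do not give. Over all genes, the block gave 25 higher and 9 lower calls, limma on FPKM 3 and 3, DESeq2's Wald test 94 and 57, no filter 84 and 48, the length trend removed 153 and 83, and leaving out 1 sample 5 to 460 and 0 to 470, beside 54 and 27. Cd74 was at -0.227 with limma on log2(FPKM + 1), and DESeq2 gave it no adjusted p. Low counts limit the precision for Cd74 (14 to 31 counts) and the MHC class II genes.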
